A study of Mus musculus with 16 samples.

Results

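Arc, Npas4, Nptx2, Bdnf, Homer1, Nr4a1, Nr4a2 and Nr4a3 are genes that neurons switch on after synaptic activity, and their RNA was followed here in mouse brain tissue after risperidone. The 8 genes were chosen by name, with earlier results of these data known. Their probe sets were those whose only gene in the platform's annotation was a member. This gave 20 probe sets of 28898 that name 1 gene alone, and of 45037 tested. Homer1 and Nr4a2 had 5 probe sets each, Nr4a3 had 3, Nptx2 and Bdnf had 2 each, and Arc, Npas4 and Nr4a1 had 1 each. Where a gene had several, the one with the highest average level stands for it.

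The study measured total RNA from tissue labelled striatum of 16 male mice, 7 to 8 weeks old, with 1 Affymetrix array per mouse and 4 mice per group. The groups were DBA/2J mice given risperidone, DBA/2J control mice, A/J mice given risperidone and A/J control mice, from the inbred lines DBA/2JRccHsd and A/JOlaHsd. Risperidone is an antipsychotic drug and a blocker of D2-type dopamine receptors and of serotonin receptors. It was injected into the abdomen at 1 mg/kg once a day for 3 days. The labels call the control mice untreated although the treatment protocol speaks of saline, and the interval from the last dose to tissue collection is not given in the sources used here. Levels are RMA log2 values, on which 1 unit is a doubling of signal. A gene was called when the p that limma gave, after Benjamini-Hochberg adjustment across the whole array, was under 0.05. The number of arrays, 4 per group, limits the precision of every value.

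When glutamate opens NMDA receptors and calcium enters a neuron, kinases carry the signal to the nucleus, where factors such as CREB, which binds the cAMP response element (CRE), start transcription within minutes. Some of the genes switched on encode transcription factors (Npas4 and the orphan nuclear receptors Nr4a1, Nr4a2 and Nr4a3). Others act directly at the synapse: Arc promotes the removal of AMPA receptors, Homer1 encodes scaffolds that link metabotropic glutamate receptors to calcium stores, Nptx2 is a secreted pentraxin that gathers AMPA receptors, and Bdnf is a neurotrophin acting through the receptor TrkB. In the striatum, Arc, Homer1 and Nr4a1 are known to respond to drugs that block or activate dopamine receptors.

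The starts of these genes are shown because the CRE is the shared control element this group is known for. In the RefSeq table used here (GRCm38.p6), 6 of the 8 members had an entry, with 13 transcription starts in all, and Arc and Nptx2 had none. The motif searched was the CRE core TGACG, on either strand, so that it also reads CGTCA, in the 250 bases before each start. All 6 genes held it at 1 start or more, in 6 of the 13 windows, while 17.8% of all 32851 windows in the table held it. Below, each sequence is given 5′ to 3′ on the gene's own strand, and the capitals mark the core. The windows lie at chr19:4989972-4990221 on the minus strand for Npas4, inside the annotated gene, and at chr13:93303507-93303756 on the plus strand for Homer1, directly before the gene. They lie at chr15:101266596-101266845 on the plus strand for Nr4a1, inside the annotated gene, and at chr2:57124004-57124253 on the minus strand for Nr4a2, directly before the gene. For Bdnf, only start 3 of 7 held the core, in the window chr2:109692186-109692435 on the plus strand, inside the annotated gene. For Nr4a3, only the stretch chr4:48045067-48045096 on the plus strand, which spans the annotated start of the gene, is printed.
Npas4: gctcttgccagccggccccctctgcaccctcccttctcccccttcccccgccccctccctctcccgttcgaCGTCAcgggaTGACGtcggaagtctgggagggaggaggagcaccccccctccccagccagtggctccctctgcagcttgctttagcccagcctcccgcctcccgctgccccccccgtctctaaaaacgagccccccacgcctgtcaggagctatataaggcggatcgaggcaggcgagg
Homer1: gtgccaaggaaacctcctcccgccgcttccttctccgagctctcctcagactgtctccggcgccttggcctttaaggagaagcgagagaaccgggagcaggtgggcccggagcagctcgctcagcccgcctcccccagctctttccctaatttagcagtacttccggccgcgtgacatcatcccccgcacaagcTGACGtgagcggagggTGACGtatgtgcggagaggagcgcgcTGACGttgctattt
Nr4a1: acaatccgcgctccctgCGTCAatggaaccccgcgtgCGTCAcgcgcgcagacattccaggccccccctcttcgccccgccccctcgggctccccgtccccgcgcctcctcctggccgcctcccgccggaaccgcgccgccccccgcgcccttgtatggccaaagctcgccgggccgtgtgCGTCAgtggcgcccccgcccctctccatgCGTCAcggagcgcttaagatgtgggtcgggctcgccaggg
Nr4a2: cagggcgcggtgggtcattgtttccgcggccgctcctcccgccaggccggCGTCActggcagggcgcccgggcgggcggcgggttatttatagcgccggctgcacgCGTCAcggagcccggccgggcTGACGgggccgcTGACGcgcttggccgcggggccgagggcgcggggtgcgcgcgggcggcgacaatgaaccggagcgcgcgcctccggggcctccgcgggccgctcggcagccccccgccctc
Bdnf start 3: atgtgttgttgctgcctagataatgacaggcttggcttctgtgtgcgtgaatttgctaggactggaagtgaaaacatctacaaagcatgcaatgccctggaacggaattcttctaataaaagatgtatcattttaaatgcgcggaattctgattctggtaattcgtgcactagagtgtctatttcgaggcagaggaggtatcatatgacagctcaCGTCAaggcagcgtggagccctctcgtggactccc
Nr4a3 stretch: aggagggTGACGtagcgtcccatgtCGTCA

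Nr4a1, Nr4a2 and Nr4a3 each held 4 cores in their window, Homer1 held 3, Npas4 held 2 and Bdnf held 1. The cores of Homer1 lay 56, 40 and 14 bases before the start, and the core of Bdnf lay 35 bases before it. The full element TGACGTCA was in none of the 13 windows and in 1.55% of all windows. The AP-1 motif TGANTCA was in a Bdnf window only, at start 2 (6.75% of all windows), the TATA box TATAAA in that of Nr4a2 only (12.4%), and the Egr motif GCGNGGGCG in those of Nr4a1 and Nr4a2 (4.7%), each on either strand. None of the 13 windows held the serum response element (1.47%) or the MEF2 motif (0.508%). A match describes letters in the sequence and not a bound site, and no binding was measured in this study.

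Defining genes of the tissue were read before the results, and they were mixed for the label. Of 12 listed symbols of striatal projection neuron markers, in which Drd1 also stood under an older name, 8 were measured. Of these, 7 lay above the array medians, 5.66 to 5.71, on all 16 arrays. The exception was Drd2, the dopamine receptor of indirect pathway neurons of the striatum, which lay between 3.62 and 4.90 with a median of 3.98. Among the others, Penk, the enkephalin precursor of the same neurons, lay between 6.13 and 7.98, and Tac1, the tachykinin precursor of direct pathway neurons, between 5.91 and 7.90. Drd1 lay between 5.85 and 6.51, and Ppp1r1b, the DARPP-32 gene, between 5.99 and 7.57. Rgs9, at 5.73 to 6.27, and Pdyn, at 5.96 to 6.35, lay close above the array medians, while Pde10a lay between 7.37 and 8.07. Of 14 listed markers of cortex and claustrum, 13 were measured, and 12 lay above the array medians on all arrays, all but Ntng2 (5.01 to 5.72). Slc17a7, the vesicular glutamate transporter of cortical neurons, lay between 9.52 and 10.20, and Tbr1, a cortical transcription factor, between 8.06 and 8.79. Levels of different probe sets cannot be set against each other, so these values give no share of striatum or cortex in the tissue. The array median was taken over all probe sets with no filter on low levels. A level above it therefore does not show that a gene is well expressed. The mean level of the 13 cortex and claustrum markers had similar ranges in the groups, at 7.86 to 8.06 in DBA/2J risperidone mice, 7.94 to 8.07 in DBA/2J control mice, 7.94 to 8.01 in A/J risperidone mice and 7.85 to 8.05 in A/J control mice. The tissue is called tissue labelled striatum throughout.

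Several libraries also stood apart. Over 46 to 49 probe sets that differ strongly between the strains, the DBA/2J share of the signal was 27.9%, 36.2% and 39.1% in A/J risperidone replicates 1, 2 and 4 and 0.584% in replicate 3, against -2.17% to 0.944% in A/J control mice, so that those 3 arrays go against their strain label. DBA/2J risperidone mice lay between 87.6%, in replicate 1, and 101.6%, against 96.1% to 102.8% in DBA/2J control mice. DBA/2J risperidone replicate 1 also had the highest level of choroid plexus and ependyma markers, which mark the lining of the ventricles rather than neurons. Of those 9 markers, only 1, Ttr, lay above the array medians on all arrays, and 5 lay below them on all arrays. The mean level of the list therefore includes many low signals. The mean level of those 9 markers was 5.96, 4.69, 4.88 and 4.76 in DBA/2J risperidone mice, against 4.59, 4.45, 4.62 and 4.77 in DBA/2J control mice. It was 5.29, 5.46, 5.66 and 4.74 in A/J risperidone mice, against 5.62, 5.28, 4.85 and 4.63 in A/J control mice. Markers of thalamus and of midbrain dopamine neurons set other arrays apart. A/J control replicate 3 had a thalamus marker mean of 7.42, against 5.95 to 6.47 in the other A/J control mice, and a midbrain dopamine marker mean of 6.80, against 4.85 to 4.90. DBA/2J risperidone replicate 4 had a midbrain dopamine marker mean of 6.94, against 4.83 to 4.95 in the other DBA/2J risperidone mice. No 2 arrays were identical, and correlations between arrays over all probe sets lay between 0.970 and 0.995. All results are given with every array, and the A/J comparison and the main calls are given without arrays that stood apart as well.

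Risperidone was compared with control first in DBA/2J mice. Arc fell, and it was the only member called; Nr4a1, Npas4 and Nptx2 had lower values whose groups did not overlap, and the 5 probe sets of Homer1 all had lower means, but none of these passed the adjusted threshold. Bdnf and Nr4a2 had intervals that spanned 0. Over all 45037 probe sets, 18 were called in this comparison (0.04%). Of the 20 member probe sets, 17 were lower and 3 higher, and 9 had an unadjusted p under 0.05, all lower, where 5.66% of all probe sets did. These 9 came from 6 genes, with 4 of them from Homer1. The median difference of the 8 main probe sets was -0.43, and that of all probe sets tested was -0.005.

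In A/J mice the same contrast called no member and none of the 45037 probe sets (0%) by limma, with 2483 of them (5.51%) at an unadjusted p under 0.05. Among the members, 11 probe sets were lower, 8 higher and 1 equal, and 2 had an unadjusted p under 0.05, Arc and Npas4, both lower, where 2.29% of all probe sets did. The median difference of the 8 main probe sets was -0.11, against 0 for all probe sets tested. Without the 3 A/J risperidone arrays that carried DBA/2J signal, 1 array was left in that group, taken to vary like the other groups. The A/J differences were then -0.775 for Npas4, -0.23 for Nptx2, -0.43 for Nr4a1, -0.20 for Nr4a2, -0.07 for Bdnf, -0.03 for Homer1 and 0.05 for Nr4a3 (each with a limma adjusted p of 0.999), and 15 of the 20 probe sets were lower and 5 higher. The mean of both strains' effects uses the same arrays: it called Arc alone among the members, where 12 probe sets were called in all (0.0266%), and 6 of the 20 were lower at an unadjusted p under 0.05, where 3.58% of all probe sets were. In each of these comparisons, fewer cells of a type and less RNA per cell cannot be told apart, since the tissue was measured in bulk.

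**Figure D1:**
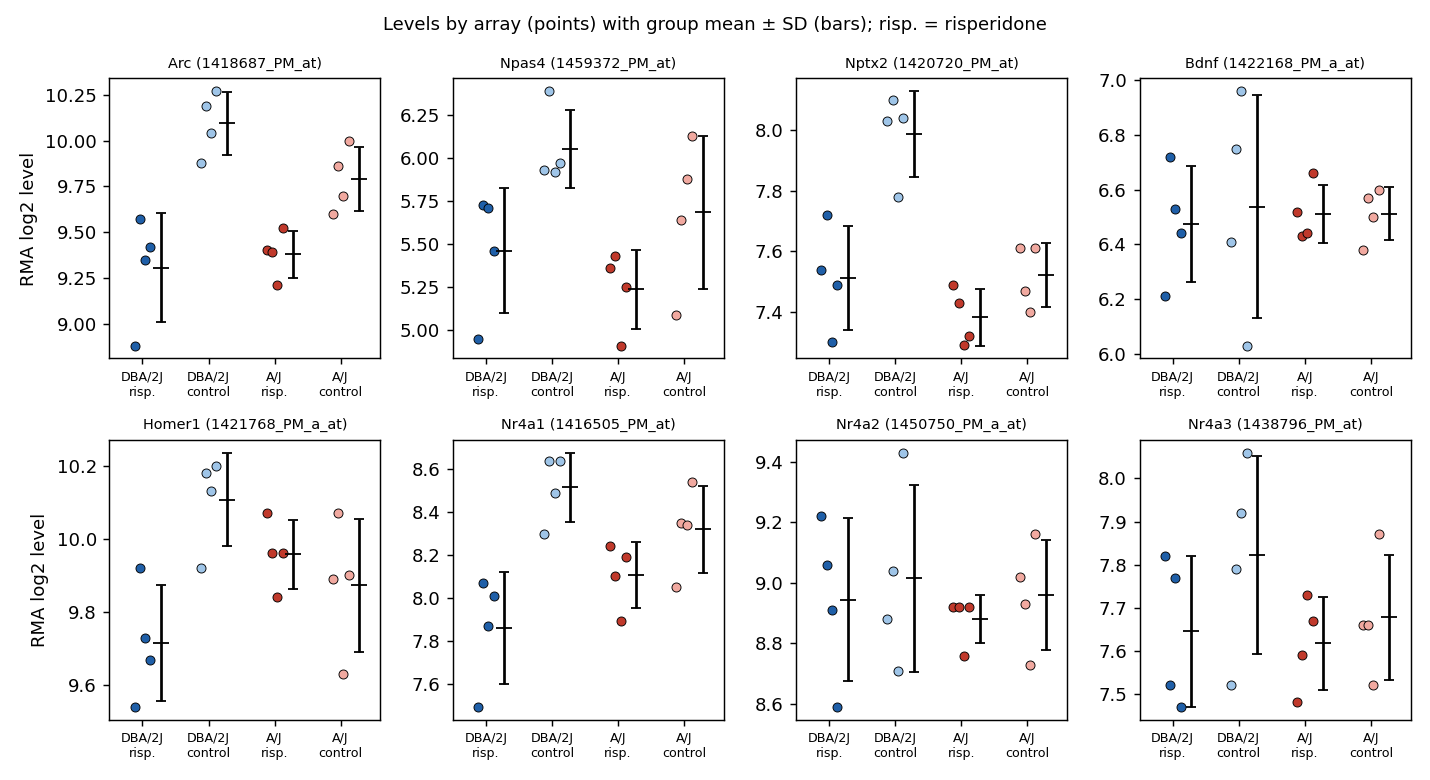
RMA log2 level of the main probe set of each of the 8 genes. Each point is 1 array and the bars give the group mean ± SD (n = 4), with DBA/2J risperidone, DBA/2J control, A/J risperidone and A/J control mice running left to right. Arc lies lower in risperidone than in control mice of both strains with no overlap, while the groups of Bdnf and Nr4a2 overlap throughout.

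Arc, on chromosome 15 (74669081 to 74672570), encodes a protein of the postsynapse whose RNA travels into dendrites. Its level was 8.88, 9.57, 9.35 and 9.42 in DBA/2J risperidone mice, against 9.88, 10.19, 10.04 and 10.27 in DBA/2J control mice. It was 9.40, 9.39, 9.21 and 9.52 in A/J risperidone mice, against 9.60, 9.86, 9.70 and 10 in A/J control mice. All risperidone arrays lay below all control arrays of their own strain. Among all probe sets, 33 (0.0733%) showed such a separation downwards in both strains, and Arc was the only one of the 20 member probe sets among them. Group means were 9.30 ± 0.30 in DBA/2J risperidone mice and 10.10 ± 0.17 in DBA/2J control mice (SD, n = 4 each), and 9.38 ± 0.13 in A/J risperidone mice and 9.79 ± 0.18 in A/J control mice.

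In DBA/2J, Arc fell by 0.79 on the log2 scale (SE 0.13, limma), which is 1.73-fold lower, with an adjusted p of 0.0367 and rank 12 by p among all probe sets. In A/J the difference was -0.41 (95% interval -0.69 to -0.13), 1.33-fold lower, with an adjusted p of 0.649. Without the 3 A/J risperidone arrays that carried DBA/2J signal the difference was -0.58 (adjusted p = 0.999). The mean effect over both strains was -0.60 (SE 0.09, adjusted p = 0.0230); it was called in 9 of 16 fits that left out 1 array, and was -0.685 (adjusted p = 0.459) without those 3 arrays. The difference between the strains' effects was -0.38 (-0.77 to 0.01, adjusted p = 0.551), so a different size of effect in the strains was not shown. The call in DBA/2J was made in 4 of 16 fits that left out 1 array, and with only the 8 DBA/2J arrays in the fit the adjusted p was 0.402. Without DBA/2J risperidone replicate 1 the difference was -0.65 (adjusted p = 0.122), and without both that array and DBA/2J control replicate 4 it was -0.59 (adjusted p = 0.238). With the choroid plexus marker level as a covariate, a setting chosen after seeing the data, the difference in DBA/2J was -0.62 (adjusted p = 0.0802), while the mean effect was -0.48 (adjusted p = 0.0474). With the cortex marker level as a covariate the difference in DBA/2J was -0.82 (adjusted p = 0.0426).

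Homer1, on chromosome 13 (93303757 to 93405129), makes long scaffold forms in resting neurons and a short form, Homer1a, that activity induces and that uncouples the scaffold. The annotation used here does not say which form a probe set reads. Its main probe set, 1421768_PM_a_at, stood at 9.54, 9.92, 9.73 and 9.67 in DBA/2J risperidone mice, against 9.92, 10.18, 10.13 and 10.20 in DBA/2J control mice. The same probe set stood at 10.07, 9.96, 9.84 and 9.96 in A/J risperidone mice, against 9.89, 10.07, 9.63 and 9.90 in A/J control mice. The DBA/2J groups met at a single value, 9.92, and the A/J groups overlapped broadly.

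The limma differences of that probe set were -0.39 in DBA/2J (SE 0.10, adjusted p = 0.201) and 0.09 in A/J (SE 0.10, adjusted p = 0.992). Probe set 1425671_PM_at had 8.20, 8.99, 8.79 and 8.59 in DBA/2J risperidone mice, against 8.91, 9.40, 9.41 and 9.29 in DBA/2J control mice. It had 9.19, 9.22, 8.94 and 8.91 in A/J risperidone mice, against 8.58, 9.08, 8.56 and 9.07 in A/J control mice. Its levels were thus mostly lower with risperidone in DBA/2J and mostly higher in A/J, with overlap in both strains. Its differences were -0.61 in DBA/2J (SE 0.16, adjusted p = 0.209) and 0.24 in A/J (SE 0.16, adjusted p = 0.959).

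Over the 5 probe sets of Homer1, differences ran from -0.61 to -0.18 in DBA/2J, 4 of them with an unadjusted p under 0.05, and from 0.04 to 0.24 in A/J, none of them with one. Without the 3 A/J risperidone arrays with DBA/2J signal, 3 of the 5 were higher in A/J, and the main probe set differed by -0.03. Without A/J control replicate 3, the array highest in thalamus markers, 4 of the 5 were higher in A/J, and the main probe set differed by 0.0042 (adjusted p = 0.999). Within groups, Homer1 and the thalamus marker level had r of -0.63 (permutation p = 0.0486, adjusted p = 0.323) and rho of -0.43 (adjusted p = 0.566), with r of -0.47 without 2 arrays. The part of these markers in the result was not tested beyond covariate settings. Over 32 settings, covariates and left-out arrays among them, the main probe set's difference in DBA/2J ran from -0.46 to -0.23. The difference between the strains' effects ran from -0.85 to -0.24 and had an unadjusted p under 0.05 in 3 of 5. After adjustment over all probe sets, the lowest p of these was 0.352, and no probe set of 45037 was called (0%) by limma in that comparison, with 4140 (9.19%) at an unadjusted p under 0.05. Of the 20 member probe sets, 5 were lower at that unadjusted p in this comparison (3 of Homer1, 1 of Nptx2 and that of Nr4a1), where 5.22% of all probe sets were. The probe sets of a gene read the same RNA samples and are not replicates.

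**Figure D2:**
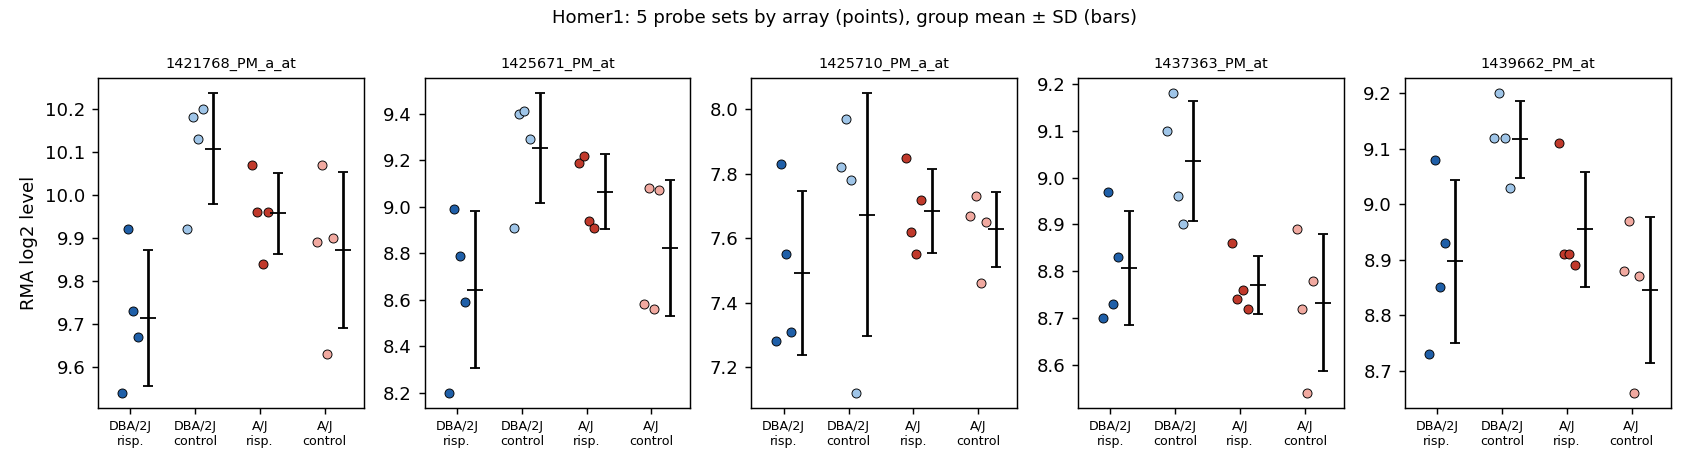
RMA log2 level of the 5 Homer1 probe sets, 1 point per array, with the group mean ± SD (n = 4) as bars. Means were lower in DBA/2J risperidone than in DBA/2J control mice in all 5, and higher in A/J risperidone than in A/J control mice in all 5 with every array kept; none of these differences passed the adjusted threshold.

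Nptx2, on chromosome 5 (144545887 to 144557478), encodes a pentraxin released at excitatory synapses. Its main probe set had 7.54, 7.72, 7.30 and 7.49 in DBA/2J risperidone mice, against 8.03, 8.10, 7.78 and 8.04 in DBA/2J control mice. In A/J the values were 7.49, 7.43, 7.29 and 7.32 in risperidone mice, against 7.61, 7.47, 7.40 and 7.61 in control mice. DBA/2J control mice stood above the other 3 groups, and no array of those groups reached them. The risperidone difference was -0.47 in DBA/2J (SE 0.10, adjusted p = 0.113), rank 41 by p, and -0.14 in A/J (SE 0.10, adjusted p = 0.960). Without DBA/2J risperidone replicate 1 the difference in DBA/2J was -0.48, so that array did not set its size. The second Nptx2 probe set, 1449960_PM_at, had group means between 4.47 and 4.64, below the array medians, and risperidone differences of -0.02 in both strains.

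Bdnf, on chromosome 2 (109674700 to 109727043), had 6.21, 6.72, 6.53 and 6.44 in DBA/2J risperidone mice, against 6.41, 6.75, 6.96 and 6.03 in DBA/2J control mice. In A/J it had 6.52, 6.43, 6.44 and 6.66 in risperidone mice, against 6.38, 6.57, 6.50 and 6.60 in control mice. The groups overlapped in both strains, and DBA/2J control mice spread the most, with an SD of 0.41. The difference in DBA/2J was -0.06 (95% interval -0.38 to 0.25), and in A/J it was 0 (-0.32 to 0.32). The second probe set, 1422169_PM_a_at, differed by -0.15 in DBA/2J (-0.39 to 0.08) and by -0.11 in A/J (-0.35 to 0.12). None of the Bdnf differences passed the test.

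Npas4, on chromosome 19 (4984353 to 5003439), encodes a neuronal transcription factor that is induced by calcium and drives inhibitory synapse genes. It had 4.95, 5.73, 5.71 and 5.46 in DBA/2J risperidone mice, against 5.93, 6.39, 5.92 and 5.97 in DBA/2J control mice. In A/J it had 5.36, 5.43, 4.91 and 5.25 in risperidone mice, against 5.09, 5.64, 5.88 and 6.13 in control mice. The DBA/2J groups did not overlap, and in A/J the lowest control array lay among the risperidone arrays. Group means were 5.46 in DBA/2J risperidone and 6.05 in DBA/2J control mice, and 5.24 in A/J risperidone and 5.685 in A/J control mice. These lie around the array medians, 5.66 to 5.71, so the separation and differences of Npas4 come from a low signal. Of the 20 member probe sets, 4 were lower without overlap in DBA/2J (Arc, Npas4, Nptx2 and Nr4a1), where 2.51% of all probe sets were, and 1 was in A/J (Arc), where 2.08% were. The Npas4 differences were -0.59 in DBA/2J (SE 0.20, adjusted p = 0.311) and -0.45 in A/J (SE 0.20, adjusted p = 0.868). With the choroid plexus marker level as a covariate the difference in DBA/2J was -0.30 (adjusted p = 0.488), and with 3 regional marker levels it was -0.09 (adjusted p = 0.966). Its mean effect was -0.52 (SE 0.14, adjusted p = 0.418), and the difference between strains was -0.14 (-0.73 to 0.44).

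Nr4a1, on chromosome 15 (101253902 to 101274795), encodes the nuclear receptor also known as Nur77, which dopamine signalling regulates in the striatum. It had 7.49, 8.07, 7.87 and 8.01 in DBA/2J risperidone mice, against 8.30, 8.64, 8.49 and 8.64 in DBA/2J control mice. In A/J it had 8.24, 8.10, 7.89 and 8.19 in risperidone mice, against 8.05, 8.35, 8.34 and 8.54 in control mice. The DBA/2J groups were separate and the A/J groups overlapped. The difference in DBA/2J was -0.66 (SE 0.13, adjusted p = 0.0956), rank 34 by p among all probe sets, and that in A/J was -0.21 (SE 0.13, adjusted p = 0.950). Without DBA/2J risperidone replicate 1, the array with the highest choroid plexus markers, the difference in DBA/2J was -0.53 (adjusted p = 0.300), and with that marker level as a covariate it was -0.48 (adjusted p = 0.222).

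Nr4a2, also known as Nurr1 and required for midbrain dopamine neurons, lies on chromosome 2 (57106830 to 57124003). Its main probe set, 1450750_PM_a_at, had 9.22, 9.06, 8.91 and 8.59 in DBA/2J risperidone mice, against 8.88, 9.04, 8.71 and 9.43 in DBA/2J control mice. In A/J it had 8.92, 8.92, 8.76 and 8.92 in risperidone mice, against 9.02, 8.93, 8.73 and 9.16 in control mice. No group stood apart. Over its 5 probe sets the differences ran from -0.07 to 0.20 in DBA/2J and from -0.15 to 0.06 in A/J, with 2 lower and 3 higher in each strain and none at an unadjusted p under 0.05.

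Nr4a3, the remaining receptor of the subfamily, lies on chromosome 4 (48045078 to 48086447). Its main probe set, 1438796_PM_at, had 7.82, 7.52, 7.77 and 7.47 in DBA/2J risperidone mice, against 7.52, 7.79, 7.92 and 8.06 in DBA/2J control mice, and differed by -0.18 (adjusted p = 0.584). In A/J it differed by -0.06 (adjusted p = 0.997). Probe set 1421080_PM_at differed more, with 7.07, 6.91, 7.36 and 6.75 in DBA/2J risperidone mice, against 7.22, 7.40, 7.35 and 7.76 in DBA/2J control mice. The groups overlapped in replicate 3 of the risperidone mice, and the difference was -0.41 (SE 0.15, adjusted p = 0.340). All 3 probe sets had lower means with risperidone in both strains with every array kept; without the 3 A/J risperidone arrays with DBA/2J signal, the main probe set differed by 0.05 in A/J.

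**Figure D3:**
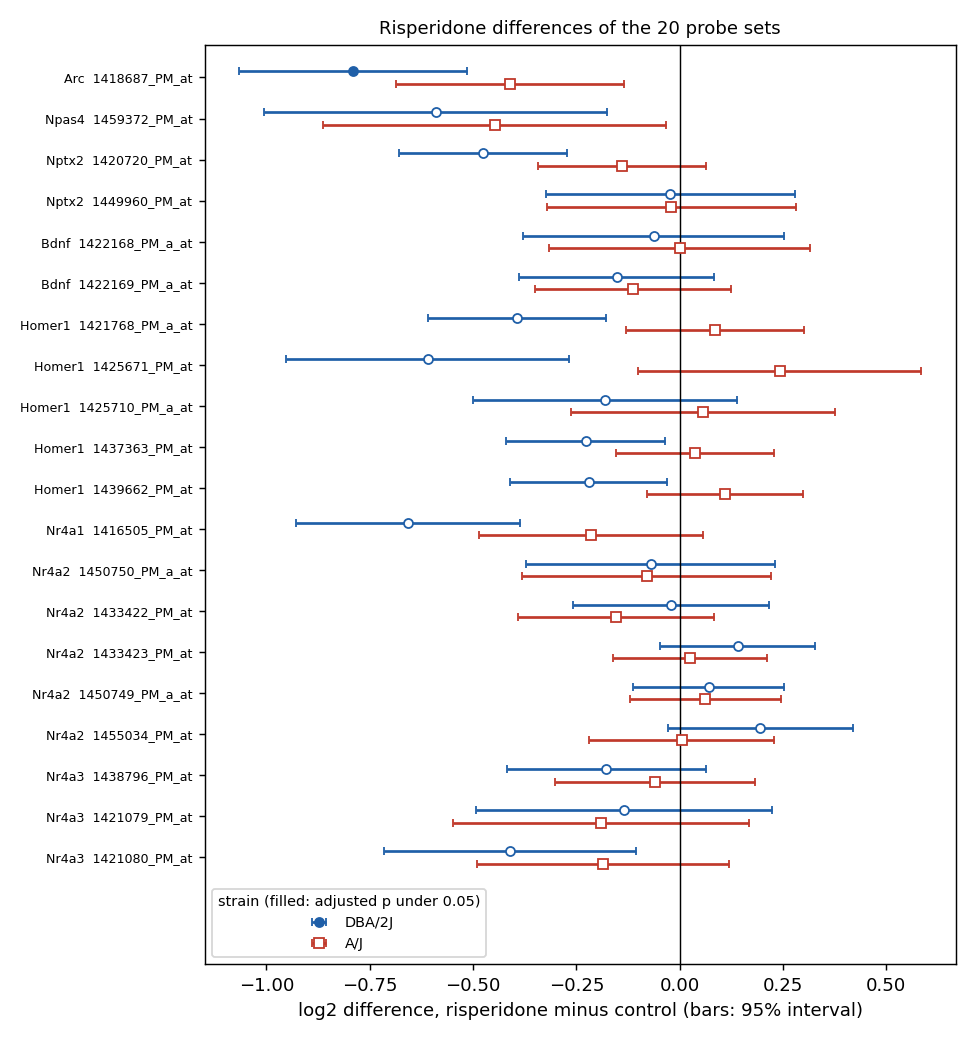
Risperidone minus control differences on the log2 scale for the 20 probe sets, with circles for DBA/2J above squares for A/J and bars for the 95% interval of limma. The only filled symbol, for an adjusted p under 0.05, is Arc in DBA/2J at -0.79; the intervals of Bdnf and Nr4a2 cross 0 in both strains.

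Probe sets of the same gene were compared with each other by an exact permutation test of the risperidone effect within strains, over 4900 regroupings of the arrays (two-sided). For none of 12 pairs did the difference between a probe set and the gene's main probe set pass after Benjamini-Hochberg adjustment over the 12, and the lowest adjusted p was 0.152. For 3 pairs the unadjusted exact permutation p was under 0.05. The low Nptx2 probe set lay 0.29 above its main one in effect (exact permutation p = 0.0249), Nr4a2 1455034_PM_at lay 0.18 above (exact p = 0.0253), and Nr4a3 1421080_PM_at differed by -0.18 (exact p = 0.0408). The smallest p these regroupings allow is 0.000204.

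The strains were compared in control mice, whose arrays also serve as the reference of the risperidone comparisons above. Nptx2 was higher in DBA/2J, by 0.46 (SE 0.10, limma, adjusted p = 0.00866), which is 1.38-fold, with no overlap and means of 7.99 ± 0.14 in DBA/2J control mice, against 7.52 ± 0.10 in A/J control mice (SD, n = 4 each). It was the only member called, where 1745 probe sets (3.87%) were called. Of the 20 member probe sets, 17 were higher in DBA/2J and 3 lower, and 6 had an unadjusted p under 0.05, all higher, where 9.47% of all probe sets did. These were Arc, Nptx2 and 4 probe sets of Homer1. The groups did not overlap for 3, Nptx2 and Homer1 1437363_PM_at and 1439662_PM_at, where 4.91% of all probe sets were higher without overlap. The Homer1 differences were 0.30 (adjusted p = 0.0746) and 0.27 (adjusted p = 0.108). Cell type markers also differed between the control groups. Lower in DBA/2J were 7 of 7 thalamus markers (3 called), 4 of 4 oligodendrocyte (2 called), 5 of 5 microglia (2 called) and 6 of 8 striatal projection neuron markers (2 called). Also lower were 3 of 3 midbrain dopamine, 7 of 9 choroid plexus and ependyma and 3 of 4 interneuron markers (0 called in each). Of the rest, 2 of 5 astrocyte (1 called), 2 of 4 endothelial and 1 of 4 blood markers were lower. A/J control replicate 3, which stood apart in thalamus and midbrain dopamine markers, is included. Of 13 cortex and claustrum markers, 5 were lower and 8 higher (1 called). The part of these markers in the strain differences was not tested beyond the covariate settings given below.

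Arc differed by 0.30 between DBA/2J and A/J control mice (adjusted p = 0.231) and Npas4 by 0.37 (adjusted p = 0.346), both with overlapping groups. After risperidone, DBA/2J and A/J mice differed less in these genes: Arc by -0.07 (95% interval -0.35 to 0.20), Npas4 by 0.23 (-0.19 to 0.64) and Nptx2 by 0.13 (-0.07 to 0.33). No member was called there by limma, where 352 probe sets (0.782%) were. At an unadjusted p under 0.05, Homer1 1421768_PM_a_at (-0.24) and 1425671_PM_at (-0.42) were lower and Nr4a2 1455034_PM_at (0.23) was higher in DBA/2J, which is 3 of 20 where 9.43% of all probe sets passed. The 3 A/J risperidone arrays with DBA/2J signal enter this comparison, and without them the differences were 0.095 for Arc, 0.55 for Npas4, 0.22 for Nptx2 and -0.125 for the main Homer1 probe set (adjusted p = 0.924 to 0.999). The change in the strain difference with risperidone is the difference between the strains' effects, and no member passed it, with adjusted p of 0.551 for Arc, 0.496 for Nptx2 and 0.894 for Npas4.

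Related genes were followed in 3 lists of neighbours in the pathway. The lists were drawn up with earlier results of these data known, so their counts describe these data and give no independent support. Of 45 listed symbols of other synaptic activity-induced genes, some of them older names of genes also listed, 39 were measured, each by its main probe set. In DBA/2J, 29 were lower and 10 higher with risperidone and 5 were called, all lower, where 0.04% of all probe sets were called; the median was -0.14, against -0.005 over all probe sets. In A/J, 25 were lower and 14 higher and none was called (0% of all probe sets by limma), with 7 lower and 1 higher at an unadjusted p under 0.05, where 2.29% of all probe sets were lower. In the mean effect 29 were lower and 10 higher, and 5 were called, all lower, where 0.0266% of all probe sets were called. These counts were repeated on fewer arrays, a choice made after seeing the data. Without the 3 A/J risperidone arrays, 2 were called in DBA/2J and 0 in the mean effect; without DBA/2J risperidone replicate 1 and DBA/2J control replicate 4, 2 were called in DBA/2J and 3 in the mean effect; and without all 5 arrays, 0 were called in either. In the mean effect with every array, Ccn1, a secreted matrix protein, fell by 0.82 (SE 0.10, adjusted p = 0.00229), and Egr2, a zinc finger factor, fell by 0.70 (SE 0.09, adjusted p = 0.00240). Fos, the AP-1 subunit, fell by 0.68 (SE 0.07, adjusted p = 0.000638), and Dusp1, a phosphatase of MAP kinases, fell by 0.37 (SE 0.06, adjusted p = 0.0250). In control mice, 3 genes of this list were called higher and 1 lower in DBA/2J, where 3.87% of all probe sets were called, among them Egr2, higher by 0.64 (adjusted p = 0.00539), and Vgf, a secreted neuropeptide precursor, higher by 0.44 (adjusted p = 0.00449). Without A/J control replicate 3, 2 genes of the list were called higher in control mice and 0 lower. After risperidone 1 was called, where 0.782% of all probe sets were. It was Ptgs2, the cyclooxygenase gene, lower in DBA/2J with a difference of -0.60 (limma adjusted p = 0.0160). The 3 A/J risperidone arrays with DBA/2J signal enter that comparison.

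The signalling proteins and factors that act upstream, such as NMDA receptor subunits, calcium kinases and CREB, were measured for 22 of 29 listed symbols. Mrtfa was listed under an older name as well. None was called with risperidone in DBA/2J, in A/J or in the mean effect by limma. In the mean effect 1 was lower, where 3.58% of all probe sets were, and 1 was higher, each at an unadjusted p under 0.05. The lowest p there belonged to Mrtfa, a cofactor of serum response factor (0.15, adjusted p = 0.664), and Mef2c, an activity-regulated factor (-0.15, adjusted p = 0.664). In control mice, 2 were called, both lower in DBA/2J, where 3.87% of all probe sets were called. Arnt2, the dimer partner of Npas4, differed by -0.71 (limma adjusted p = 0.000437), and Cacna1c, the L-type calcium channel subunit, by -0.34 (adjusted p = 0.0213). Without A/J control replicate 3, the array highest in thalamus markers, 1 of the list was called lower and 0 higher. After risperidone, Arnt2 alone was called, at -0.46 (limma adjusted p = 0.0481), where 0.782% of all probe sets were. That comparison includes the 3 A/J risperidone arrays with DBA/2J signal. Leaving them out leaves 1 A/J array, so the call rests on including them. Protein partners of the members, such as TrkB for Bdnf and Shank scaffolds for Homer1, were measured for 22 of 28 listed genes, and none was called in any of the 6 comparisons by limma. In the mean effect, 0 were lower, where 3.58% of all probe sets were, and 1 was higher, at an unadjusted p under 0.05. The higher gene was Sorcs2, with 0.14 (limma adjusted p = 0.654).

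Of the 28 pairs among the 8 genes, 3 varied together within groups by Pearson's r and 1 by Spearman's rho. Correlations were taken over the 16 arrays after removing the 4 group means, with p from 100000 permutations within groups. Arc and Nr4a1 varied together most closely, with Pearson's r of 0.95 (permutation p = 3e-05, adjusted p = 0.00084) and Spearman's rho of 0.91 (permutation p = 0.00013, adjusted p = 0.00364). Without the 2 arrays farthest out in Arc, r was 0.91. Npas4 and Nr4a1 had r of 0.84 (permutation p = 0.00154, adjusted p = 0.0216), with rho 0.74 (adjusted p = 0.0826) and r of 0.68 without 2 arrays. Arc and Npas4 had r of 0.74 (permutation p = 0.00509, adjusted p = 0.0475), with rho 0.66 (adjusted p = 0.154) and r of 0.66 without 2 arrays. Arc and Homer1 had r of 0.70 (permutation p = 0.0112, adjusted p = 0.0785) and rho 0.64 (adjusted p = 0.154). Nptx2, Bdnf, Homer1, Nr4a2 and Nr4a3 had no pair that passed. The correlations of Npas4 rest on levels around the array medians, as given above.

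**Figure D4:**
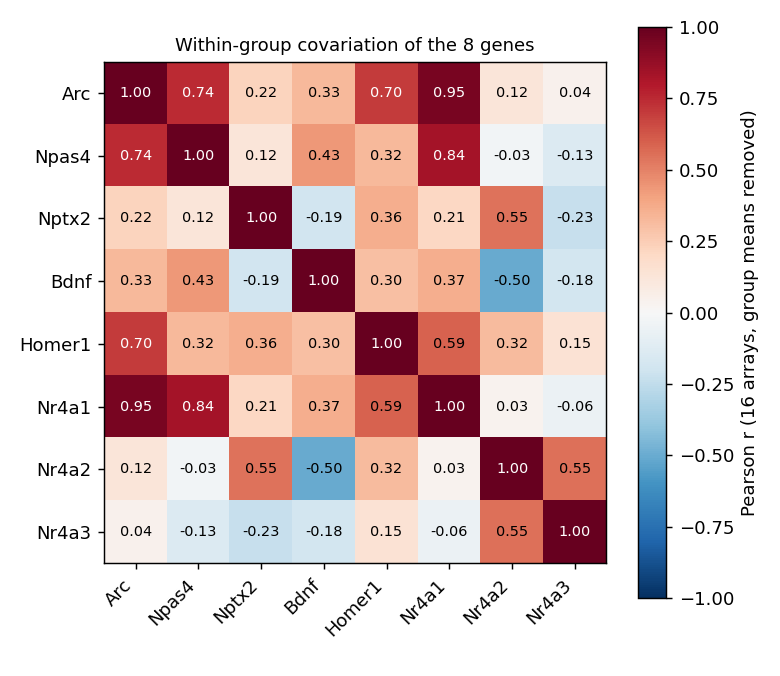
Pearson correlation between the main probe sets of the 8 genes over 16 arrays after the group means were removed, on a scale of -1 to 1. Arc, Npas4 and Nr4a1 form the block of highest values (0.74, 0.84 and 0.95), and Arc and Homer1 follow at 0.70.

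The same residuals were set against the mean levels of marker lists and the DBA/2J share, which gave 96 relations. The choroid plexus and ependyma markers ran opposite to Arc (r = -0.77, permutation p = 0.00694, adjusted p = 0.0952; rho = -0.67, adjusted p = 0.182), Npas4 (r = -0.80, permutation p = 0.00269, adjusted p = 0.0557; rho = -0.74, adjusted p = 0.0773) and Nr4a1 (r = -0.81, permutation p = 0.00233, adjusted p = 0.0557; rho = -0.71, adjusted p = 0.126). None of these passed after adjustment. Without the 2 arrays farthest out in marker level, r was -0.62 for Arc, -0.83 for Npas4 and -0.74 for Nr4a1. With risperidone, 8 of the 9 markers were higher in DBA/2J, with a median of 0.26, 8 of 9 were higher in A/J, with a median of 0.11, and none was called. Ttr, which defines the choroid plexus, ranged from 6.0 to 11.97 over the arrays. It was the only 1 of the 9 above the array medians on all arrays, and 5 lay below them on all arrays.

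Nr4a2 ran opposite to the oligodendrocyte markers, with r of -0.83 (permutation p = 0.00087, adjusted p = 0.0557) and rho of -0.84 (permutation p = 0.00038, adjusted p = 0.0365), and r of -0.74 without 2 arrays. Striatal projection neuron markers, 8 of 12 listed symbols measured, had r of -0.65 with Arc (adjusted p = 0.171; rho = -0.64, adjusted p = 0.247). Their mean level was 6.29 to 6.62 in DBA/2J risperidone mice, against 6.0 to 6.30 in DBA/2J control mice, and 6.27 to 6.42 in A/J risperidone mice, against 6.20 to 6.73 in A/J control mice. With 3 regional marker levels as covariates, the Arc difference in DBA/2J was -0.48 (adjusted p = 0.850).

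Blood markers, 4 of 7 measured, were higher with risperidone in both strains in 4 of 4, with medians of 0.185 (DBA/2J) and 0.56 (A/J), and none was called. Their mean level was 9.33 to 9.84 in DBA/2J risperidone mice, against 9.10 to 9.75 in DBA/2J control mice. It was 9.63 to 9.87 in A/J risperidone mice, against 8.95 to 9.47 in A/J control mice, where the groups did not overlap. Within groups, r with this level was -0.26 for Arc (adjusted p = 0.707; rho = -0.26, adjusted p = 0.849), -0.22 for Npas4 (adjusted p = 0.724) and -0.33 for Nr4a1 (adjusted p = 0.666), by permutation. The part of choroid plexus, striatal and blood markers in the risperidone differences was not tested beyond these relations and covariates.

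**Figure D5:**
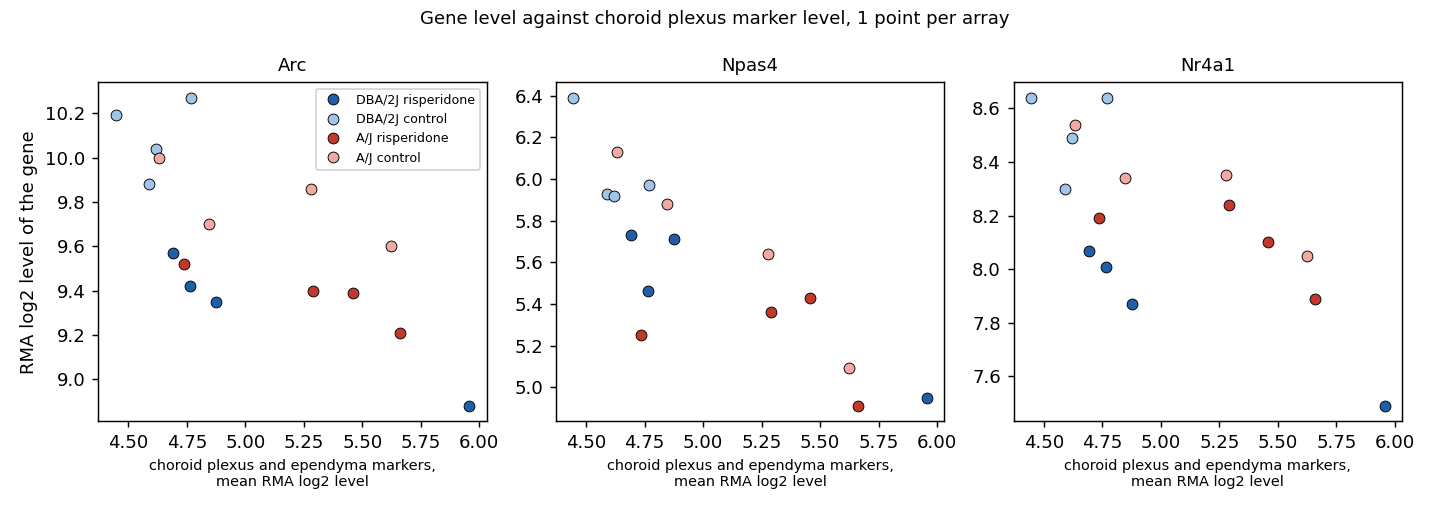
RMA log2 level of Arc, Npas4 and Nr4a1 against the mean level of 9 choroid plexus and ependyma markers, 1 point per array, coloured by group. The DBA/2J risperidone array with the highest marker level, 5.96, has the lowest Arc and Nr4a1 levels, 8.88 and 7.49, and a Npas4 level of 4.95.

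Beyond the members, the most alike genes were found by Pearson's r of levels over the 16 arrays among 17089 genes, as a description with the group differences and shared libraries included. Arc was most like Fos (0.94), Egr1 (0.90) and Egr2 (0.90), and within groups these were 0.78, 0.75 and 0.66. Nr4a1 was most like Egr2 (0.88), Hipk3 (0.87) and AU023762 (0.86). Npas4 was most like Cd200r1 (0.86), Fos (0.80) and Srpk1 (0.79). Nptx2 was most like Raph1 (0.93), Mfsd4a (0.90) and Nlk (0.90), and Homer1 most like Foxb2 (0.92), Akt2 (0.90) and Kcnh7 (0.88). Bdnf was most like Nrn1 (0.91), Rbm12b1 (0.87) and Baalc (0.86), with Nrn1 at 0.92 within groups. Nr4a2 was most like Trpc5 (0.88), Npr3 (0.87) and Mdn1 (0.86), and Nr4a3 most like 1700102P08Rik (0.87), Sct (0.84) and Sall3 (0.83). The immediate early genes Fos, Egr1 or Egr2 were thus among the nearest for Arc, Npas4 and Nr4a1 and for none of the other 5 members.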

How the data were processed

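Total RNA of 16 mice was measured on Affymetrix mouse arrays of perfect-match probes, 1 per mouse. The deposited table holds a log2 level for each probe set and mouse, which the authors obtained by RMA, per the submitters' processing notes; its version and other upstream steps are not given in the sources used here. From 45141 rows, the 104 control rows were removed, and no filter on low levels was applied. Probe sets were named through the platform annotation, and sequences and coordinates from RefSeq (GRCm38.p6). Members, lists and tests were chosen with earlier results of these data known.

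The 4 group means were estimated from all 16 arrays together (limma 3.58.1, lmFit and eBayes, R 4.3.3) for 6 comparisons, two-sided, with Benjamini-Hochberg adjustment over 45037 probe sets within each. It was tested on simulated data. All members were named with every probe set. Of each pathway list, up to 4 genes with the smallest p in the mean effect and up to 2 in a strain comparison were named, and the 3 most alike genes of each member. Strain markers had a log2 difference of at least 1.5, a level of at least 7 and an adjusted p under 0.01 in control mice. Alternatives covered normalization, filters, variance models, covariates and left-out arrays. Figures used matplotlib 3.10.9.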

Additional observations from a re-analysis of the deposited data

Results flagged for a closer look

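In 4 of 80 groups of 4 arrays, 1 array stood far from the other 3 by Dixon's test, a rate that chance alone gives in about 1 of 20 groups. Npas4 was at 6.39 in DBA/2J control replicate 2, against 5.92 to 5.97 in the others (gap over range 0.894). Homer1 1439662_PM_at was at 9.11 in A/J risperidone replicate 1, against 8.89 to 8.91 (0.909). Nr4a2 1433423_PM_at was at 5.34 in DBA/2J control replicate 4, against 5.17 to 5.19 (0.882), and Nr4a2 1450750_PM_a_at was at 8.76 in A/J risperidone replicate 3, against 8.92 in each of the others (1).

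For a pair of Homer1 probe sets, every DBA/2J risperidone array lay below the mean of DBA/2J control mice and every A/J risperidone array above the mean of A/J control mice. The difference between the strains' effects was -0.853 for 1425671_PM_at (limma, adjusted p = 0.352) and -0.33 for 1439662_PM_at (adjusted p = 0.473), and neither passed. How many of all probe sets show this pattern was not counted. The A/J differences were 0.24 and 0.11. Without the 3 A/J risperidone arrays with DBA/2J signal they were 0.12 and 0.065, from 1 array. A/J control replicate 3, which stood apart in thalamus markers, had the lowest A/J control levels, 8.56 and 8.66.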

How the results depend on the processing

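Counts of members past the threshold and 19 differences of single members were recomputed under 16 other settings and with each of 16 arrays left out in turn; 29 differences with an unadjusted p of 0.05 or more were given no direction to follow. In DBA/2J the count of risperidone calls, 1 as reported, was 3 among probe sets at or above the median level (Arc, Nptx2 and Nr4a1). It was 2 with trend and robust options. It was 0 with array weights, with the strain marker share, 3 regional marker levels or the choroid plexus level as covariates, with the 3 A/J risperidone arrays that carried DBA/2J signal, DBA/2J risperidone replicate 1 and DBA/2J control replicate 4, or all 5 of these left out, and with only the 8 arrays compared. With single arrays left out it ran from 0 to 2, and Arc was called in 4 of 16 such fits (-0.88 to -0.65, adjusted p = 0.0186 to 0.171); the calls that held were without A/J control replicates 1, 3 or 4 or DBA/2J risperidone replicate 2. In the mean effect the count, 1, was 0 with the strain marker share or 3 regional levels as covariates and with 3 or 5 arrays left out, and 0 to 1 with single arrays left out; the Arc call held in 9 of 16 and was lost without A/J control replicates 2 or 4, A/J risperidone replicates 1 or 2, DBA/2J control replicates 2 or 4 or DBA/2J risperidone replicate 3 (adjusted p at most 0.0780). In the strain comparison of control mice the count, 1, was 2 after a second quantile normalization, at or above the median level, with trend and robust options, with array weights and without the 2 DBA/2J arrays. It was 0 with the strain marker share or 3 regional levels as covariates, without 5 arrays and when a gene's probe sets were averaged, and 1 to 2 with single arrays left out; Nptx2 was called in all 16. The marker share nearly equals the strain in control mice, so that this fit cannot separate them there and says nothing about stability; it gave -0.53 for Arc and -0.10 for Homer1. With 3 regional levels as covariates these differences were -0.0262 and -0.0306, and the cause was not tested. The other counts were 0 under every setting run. Choroid plexus covariates and the 2 left-out DBA/2J arrays were chosen after seeing the data.

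Whether replicate numbers pair the samples was not settled. Of 8 same-numbered pairs, 3 correlated above 0.1 (range -0.02 to 0.16) and 4 correlated best with their own number. In DBA/2J, numbers 1, 2 and 3 had 0.13, 0.09 and 0.11, against 0.02, -0.005 and 0.01 at best with another number. Number 4 there had -0.02, against 0.02. With the number as a replicate block, the count in DBA/2J was 2, Arc and Nr4a1, and the other counts were as reported.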
